A study of Mus musculus with 4 samples.

Results

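The genes described here are the 6 best-known transcripts of the Dlk1-Dio3 imprinted cluster on mouse chromosome 12: Meg3, Rian, Mirg, Dlk1, Rtl1 and Dio3. They were taken by symbol from the authors' deposited table of 27542 genes and transcribed loci, where each of the 6 had 1 row. RNA sequencing was done on the mouse embryonic stem (ES) line TBV2, kept in serum and the cytokine LIF, and the series design adds feeder cells and high density. The control was 1 library of a non-targeting (NT) line. The knockdown (KD) group was 3 clones of the same cell line with lowered T-UCstem1, an ultraconserved long noncoding RNA whose target is labelled uc.170, and the table's single treated value per gene was taken as these clones merged by the authors. The level of T-UCstem1 itself was not analysed here. Every value below is an FPKM (fragments scaled to transcript length and to the mapped fragments of the library), 1 for the KD and 1 for the control, so no SD, SE or interval accompanies it and the depth per library is unknown. The members were chosen by their location in the cluster and with these same KD and control values in view, so the levels, folds and q-values of the 6 genes are a description and support nothing further.

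In an imprinted cluster, the parental origin of a chromosome decides which genes are transcribed from it. At Dlk1-Dio3 the maternal chromosome gives the noncoding RNAs Meg3, Rian and Mirg, which host many microRNAs and small nucleolar RNAs (snoRNAs), while the paternal chromosome gives the protein-coding genes Dlk1, Rtl1 and Dio3. A control region between Dlk1 and Meg3, methylated on the paternal copy, sets this pattern, and in mouse pluripotent cells the noncoding RNAs of the cluster are known for marking lines with full developmental potential.

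The noncoding RNAs of the maternal chromosome were lower in the KD by a similar proportion, and the protein-coding genes stood near or under 1 FPKM in both conditions. Meg3 was at 26.8 FPKM in the KD against 69.9 FPKM in the control, Rian at 33.5 against 78.1 FPKM and Mirg at 3.81 against 10.3 FPKM. Their summed level was 64.1 FPKM in the KD against 158 FPKM in the control, or 40.5% of the control. Dio3 and Dlk1 were higher in the KD, at 1.35 against 0.633 FPKM and 0.447 against 0.230 FPKM, and Rtl1 was lower, at 0.0670 against 0.182 FPKM.

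The microRNAs that the deposited rows attach to Meg3 and Mirg are shown first, because each such row gives 1 FPKM under the symbols of the noncoding RNA and of its microRNAs together. Sequences are from RefSeq on build GRCm38.p6, 5′ to 3′, with the seed, bases 2 to 8, in capitals. The Meg3 row also carries Mir770 and Mir1906-1:
miR-770-5p: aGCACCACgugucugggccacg
miR-770-3p: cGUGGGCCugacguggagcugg
miR-1906: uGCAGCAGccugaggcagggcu
The Mirg row also carries Mir485, Mir412, Mir369, Mir410 and Mir3072:
miR-485-3p: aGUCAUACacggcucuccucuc
miR-412-5p: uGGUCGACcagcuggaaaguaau
miR-412-3p: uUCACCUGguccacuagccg
miR-369-5p: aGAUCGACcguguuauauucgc
miR-369-3p: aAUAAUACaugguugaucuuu
miR-410-5p: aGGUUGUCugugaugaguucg
miR-410-3p: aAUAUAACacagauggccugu
miR-3072-5p: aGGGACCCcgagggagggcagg
miR-3072-3p: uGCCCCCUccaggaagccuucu
RefSeq places miR-485-3p just before the start of Mirg and outside it, although the deposited row joins them. Each of the sequences above has a seed that differs from the others shown. Over the whole cluster RefSeq gave 114 mature sequences from 61 hairpin genes, with 104 distinct seeds. Of the 58 microRNA symbols in the cluster's deposited rows 56 matched by symbol. A seed was shared by 2 or more distinct sequences in 9 cases. To show how close such relatives are, miR-410-5p above has the seed of miR-494-5p, and further pairs with a common seed lie upstream of Mirg:
miR-494-5p: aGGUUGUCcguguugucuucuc
miR-379-5p: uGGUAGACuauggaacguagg
miR-1193-5p: uGGUAGACcggugacguaca
miR-379-3p: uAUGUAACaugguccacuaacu
miR-411-3p: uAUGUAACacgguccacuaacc
miR-376b-5p: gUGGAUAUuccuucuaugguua
miR-376c-5p: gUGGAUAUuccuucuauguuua
Of the mature sequences in the cluster 106 lie on the plus strand and 8 on the minus strand. In RefSeq coordinates 10 hairpin genes have a mature sequence inside Mirg, 3 inside Rian and 2 inside Meg3.

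The windows around an annotated start of each of Meg3, Rian, Mirg and Dio3 are shown because the first 3 genes were lower together and Dio3 was not. Each runs from 250 bases before to 50 bases after the RefSeq start on the plus strand of GRCm38.p6. Capitals mark matches on either strand to 6 motifs. The TATA box was searched as TATAAA and the cAMP response element as TGACGTCA. The CCAAT box was searched by those letters and the GC box as GGGCGG. The core bound by the imprint protector ZFP57 was searched as TGCCGC and the octamer of OCT4 and its relatives as ATGCAAAT.
Meg3, chr12:109540746-109541045: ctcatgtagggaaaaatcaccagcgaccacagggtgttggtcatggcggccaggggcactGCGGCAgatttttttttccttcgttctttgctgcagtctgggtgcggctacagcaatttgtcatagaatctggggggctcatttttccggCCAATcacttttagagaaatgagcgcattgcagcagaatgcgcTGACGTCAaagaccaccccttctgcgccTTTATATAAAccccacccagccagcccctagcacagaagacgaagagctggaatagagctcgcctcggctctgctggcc
Rian, chr12:109603695-109603994: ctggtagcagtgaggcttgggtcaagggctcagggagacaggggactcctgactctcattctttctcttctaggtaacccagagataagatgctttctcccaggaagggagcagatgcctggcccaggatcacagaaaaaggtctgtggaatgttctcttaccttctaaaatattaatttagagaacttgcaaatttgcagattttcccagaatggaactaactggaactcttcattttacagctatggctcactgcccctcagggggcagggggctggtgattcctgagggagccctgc
Mirg, chr12:109734731-109735030: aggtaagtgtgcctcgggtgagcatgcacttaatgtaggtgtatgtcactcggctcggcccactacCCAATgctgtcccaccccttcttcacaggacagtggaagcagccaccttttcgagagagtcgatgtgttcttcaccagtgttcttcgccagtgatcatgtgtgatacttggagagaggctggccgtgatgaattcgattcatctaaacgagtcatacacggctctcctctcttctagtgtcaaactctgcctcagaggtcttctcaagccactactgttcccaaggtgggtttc
Dio3, chr12:110278980-110279279: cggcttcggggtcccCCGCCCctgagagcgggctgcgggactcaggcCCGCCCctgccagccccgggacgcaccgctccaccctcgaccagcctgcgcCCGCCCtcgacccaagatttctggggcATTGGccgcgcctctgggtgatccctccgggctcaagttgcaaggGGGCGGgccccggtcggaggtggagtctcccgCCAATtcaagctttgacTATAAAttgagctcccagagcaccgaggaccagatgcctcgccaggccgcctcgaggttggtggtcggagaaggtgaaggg
The Meg3 window held TGACGTCA from 57 bases before the start, letters found in 1.79% of 32851 promoter windows of the same length. It also held TATAAA from 25 bases before the start, overlapping its own reverse complement TTTATA, a motif present in 13.6% of windows. CCAAT (37.4% of windows) lay 100 bases before the start and GCGGCA, the reverse complement of TGCCGC (11.6% of windows), 190 bases before. The Rian window held none of the 6 motifs, and the Mirg window held CCAAT alone. The Dio3 window held TATAAA from 31 bases before the start, CCAAT in both orientations and 4 GC boxes, which occur in 35.7% of windows. ATGCAAAT, in 1.74% of windows, was in none of the 4. CpG dinucleotides numbered 13 in the Meg3 window, 0 in that of Rian, 10 in that of Mirg and 25 in that of Dio3, against a median of 7 over all windows. A further annotated Meg3 start, with 1 CpG, and the Dlk1 start, with 9, are not shown. Neither of their windows held any of the 6 motifs, and Dlk1 was also not lower in the KD. The Mirg window also contained the mature sequences of miR-668-5p, miR-668-3p and miR-485-3p. These matches describe letters in the windows and were not tied to any binding or methylation measurement.

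Meg3, the noncoding RNA next to the control region, had the lowest log2 fold of the 6 on the scale used here, close to those of Mirg and Rian. Its row lies on chromosome 12 from 110779206 to 110809939 on mm9, the build of the deposited table. In GENCODE M21 it has 11 transcripts on the plus strand with up to 10 exons. The control stood at 69.9 FPKM and the KD at 26.8 FPKM, so that Meg3 fell to 38.3% of the control level. The log2 fold, taken throughout as log2((KD FPKM + 1)/(control FPKM + 1)), was -1.35. In the authors' deposited table Meg3 had a Cuffdiff p of 5e-05, the smallest that the table gives and found in 95 tested rows, and a q of 0.00815. Among the 12330 rows that carry a symbol and reach 1 FPKM in either condition, 20 had a log2 fold at or under that of Meg3, itself included, which is 0.162%. In the control 9.23% of those rows were at or above the level of Meg3, and in the KD 25.7%.

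Rian, the next noncoding RNA and the host of an array of C/D-box snoRNAs, fell to 33.5 FPKM against 78.1 FPKM, which is 42.9% of the control. Its log2 fold was -1.20 and its deposited q 0.00815. The row also carries AF357359, a snoRNA symbol, and spans 110828379 to 110899921 on chromosome 12. That interval is shared by 16 rows of the table, among them Rtl1 and 6430411K18Rik. Rian was the most abundant of the 6 genes in both conditions. By the authors' mark, 2 of the 4 cluster genes that were tested were lower in the KD and none was higher. Over all 15477 tested rows 0.187% were marked lower, and 1.15% were marked in either direction. The rule used this contrast, so nothing is read from the members' count. Of the 29 rows marked lower, Meg3 had the third lowest log2 fold and 10 rows were at or below that of Rian.

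Mirg, the farthest of the 3 member noncoding RNAs from Dlk1 and the host of a dense microRNA array, was at 3.81 FPKM against 10.3 FPKM. That is 37.0% of the control, with a log2 fold of -1.23. Its q in the authors' deposited table was 0.264 with a p of 0.0109, so it was not marked. The row spans 110973076 to 110987667, and GENCODE M21 gives Mirg 12 transcripts with up to 17 exons. Mirg was the lowest of the 3 member noncoding RNAs in both conditions. Meg3 was at 0.896 of Rian in the control and 0.801 in the KD. Meg3 was at 6.79 times the level of Mirg in the control and 7.03 times in the KD, and Rian at 7.58 and 8.77 times. On the scale of a 2-fold difference in log2(FPKM + 1), 3 of the 6 genes were lower and none was higher, though Dio3 was higher by 2-fold without the pseudocount. Over the 13462 rows at 1 FPKM or more in either condition 0.973% were lower by that measure and 3.16% higher, and over all 27532 usable rows 0.476% and 1.54%.

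**Figure D1:**
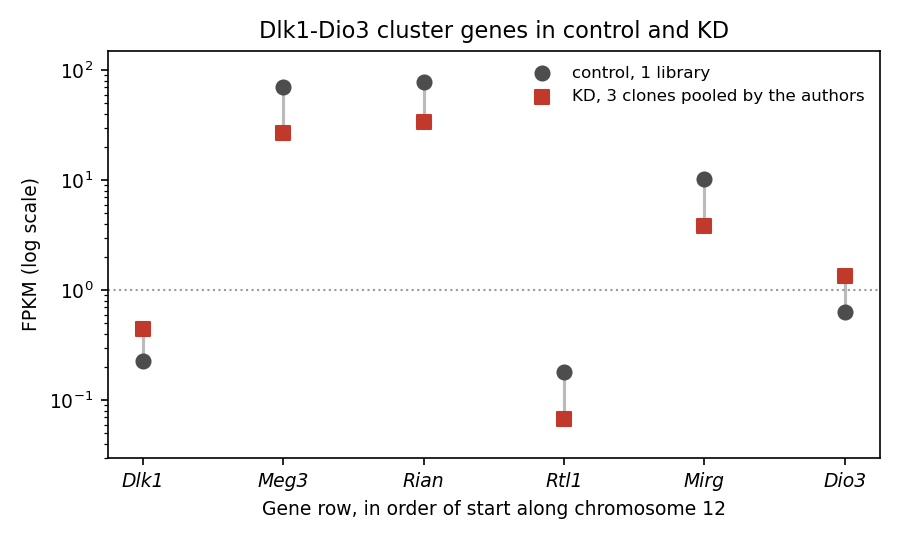
FPKM on a log axis for the 6 cluster genes, with the control as grey circles (1 library) and the KD as red squares (3 clones merged by the authors); the dotted line is 1 FPKM and no error is available. Meg3, Rian and Mirg lie at 26.8, 33.5 and 3.81 FPKM in the KD under 69.9, 78.1 and 10.3 FPKM in the control, while Dlk1 and Dio3 lie higher in the KD and Rtl1 lower, near or under the line.

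With 1 control library, a high level of these RNAs particular to that culture and a lower level through the knockdown cannot be told apart. In bulk RNA, fewer cells that express a gene and less RNA per cell also cannot be told apart. The merged value hides the spread between the 3 clones, so whether their values overlap that of the control is not known.

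The protein-coding genes of the paternal chromosome were close to the lower limit of the table. Dio3, the deiodinase that inactivates thyroid hormone, stood at 1.35 FPKM after knockdown against 0.633 FPKM, with a log2 fold of 0.52 and a deposited q of 0.851. It passed 1 FPKM in the KD alone. Dlk1, a membrane protein related to Notch ligands, was at 0.447 FPKM against 0.230 FPKM, a log2 fold of 0.23. Rtl1, a retrotransposon-derived gene needed in the placenta, was at 0.0670 FPKM against 0.182 FPKM, a log2 fold of -0.15. Cuffdiff did not test Dlk1 or Rtl1, whose status marks too few fragments. The pseudocount of 1 compresses the folds of these genes, and without it Dio3 was at 1.09, Dlk1 at 0.96 and Rtl1 at -1.44 on the log2 scale. Dio3 was then past 2-fold.

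Rtl1 is transcribed from the minus strand and lies opposite microRNAs of the plus strand. In GENCODE M21 its exons share 124 bases with Mir433, 94 with Mir434, 91 with Mir431, 70 with Mir127 and 62 with Mir136. Whether counting used strand is not stated in the labels, and without it reads of Rtl1 and of the antisense precursor cannot be told apart. The row of 6430411K18Rik, a noncoding transcript that also carries Mir127, was at 0.382 FPKM in the KD against 0.886 FPKM in the control, and its q was 0.999. The order of the levels was the same in both conditions: Rian, Meg3, Mirg, Dio3, Dlk1, Rtl1. FPKM is a level per length, so levels can be set side by side across genes. The rows of Meg3, Rian and Mirg also carry small RNA symbols, whose part in their FPKM is not known. The place of Rtl1 in the order is limited by the unknown use of strand. Without a spread it is not known which neighbours in the order differ.

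The cluster between the start of Dlk1 and the end of Dio3 spans 828 kb on mm9 and holds 65 rows of the table. Of these, 11 were above 0 in either condition, of which 7 were lower in the KD and 4 higher. Rows with small RNA symbols alone numbered 55, made up of 49 microRNA rows and 6 snoRNA rows, and 54 of them were listed at 0 in both conditions. A row listed at 0 can be a failed estimate, so these rows give no level for the small RNAs. The exception was Mir3070b, at 0.0854 FPKM in the KD against 0.492 FPKM. Near Dio3, the antisense transcript Dio3os was at 0.204 FPKM against 0.124 FPKM, and 3110009F21Rik at 0.0224 FPKM while listed at 0 in the control. A row without a symbol, 408 kb from the start of Meg3, was at 0.640 FPKM against 0.752 FPKM.

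Genes on either side of the cluster were centred near equal levels. Within 1 Mb of the cluster 24 rows reached 1 FPKM, and their median log2 fold was 0.012. On the log2(FPKM + 1) scale none of the 24 was lower by 2-fold, and Amn, a partner of cubilin in endocytosis, was higher (7.09 against 0.601 FPKM). The pseudocount compresses low flanking rows in both directions, such as a row without a symbol (0.876 against 2.33 FPKM) and Eml1 (1.99 against 0.824 FPKM). None of the 26 tested rows in these flanks was marked, where 1.15% of all tested rows were marked in either direction. The most abundant flanking gene, the chaperone Hsp90aa1, was at 1285 against 1251 FPKM. The nearest rows at 1 FPKM on the centromeric side were Begain (1.14 against 1.19 FPKM), which lies 385 kb from Dlk1, Wdr25 (3.92 against 5.43 FPKM) and Wars (80.2 against 71.9 FPKM). On the telomeric side they were a row without a symbol, 102 kb from Dio3, at 0.487 against 1.04 FPKM, Ppp2r5c, a phosphatase subunit gene 166 kb away, at 54.9 against 70.8 FPKM, and B930059L03Rik at 0.924 against 1.24 FPKM. Over the 502 rows of chromosome 12 outside the cluster at 1 FPKM or more, the median log2 fold was -0.026 and 0.598% were lower by 2-fold. These were 3 rows, named after their values were seen: Egln3, Acot1 and a row without a symbol.

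**Figure D2:**
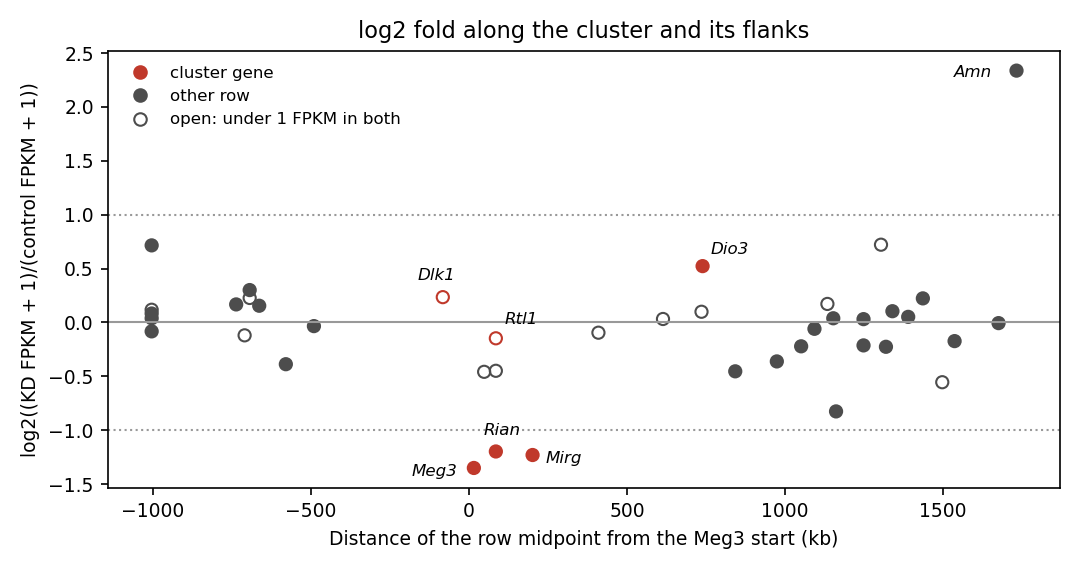
Log2 fold of each row above 0 FPKM in the cluster and within 1 Mb of it, against the distance of the row's midpoint from the start of Meg3 in kb; red points are the 6 cluster genes, grey points other rows, open points are under 1 FPKM in both conditions and dotted lines mark a 2-fold difference. Meg3 (-1.35), Mirg (-1.23) and Rian (-1.20) are the only points under the lower dotted line, and Amn (2.34) is the only point above the upper one.

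Rows of comparable level or kind were looked at as a background. Of 929 rows with 50 to 100 FPKM in the control, Meg3 and Rian included, 6 were lower by 2-fold, which is 0.646%, and their median log2 fold was 0.013. In that range 7 rows (0.753%) were marked lower, a larger share than the 0.187% over all tested rows. Of 4679 rows with 5 to 20 FPKM in the control, Mirg included, 0.705% were lower by 2-fold and 0.0855% were marked lower. Long noncoding RNAs as a class, taken as rows whose only symbol is a long noncoding RNA in GENCODE M21, numbered 262 at 1 FPKM or more, with a median log2 fold of -0.085. Of these 5 were lower by 2-fold (1.91%) and 10 higher, against 0.973% and 3.16% of all rows at 1 FPKM or more. Among the 350 tested rows of this class, 0 were marked lower and 2 higher, against 0.187% and 0.963% of all tested rows. The 5 lower rows, named after their values were seen, were 1700048O20Rik, Gm15915, 1700097N02Rik, BC039966 and 2310039L15Rik. Rows elsewhere that carry a microRNA together with another symbol numbered 13 at 1 FPKM or more. Their median was -0.35, with quartiles of -0.73 and -0.081 and a highest log2 fold of 0.048, and none was marked. Among them Mir1291 with Snora34, listed at 0 in the KD, was lower by 2-fold. The next lowest, named after their values were seen, were the rows of Snhg4 (8.69 against 16.8 FPKM), Kis2 (2.04 against 4.07 FPKM) and A930011O12Rik (10.8 against 18.6 FPKM). Dleu2 was at 5.56 against 7.37 FPKM and the Mir290 host row at 23.6 against 27.5 FPKM.

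Among rows with 1 symbol, those whose pair of levels lay nearest to that of Meg3, by Euclidean distance over 2 conditions in log2(FPKM + 1), were Tuba3a (27.8 against 69.2 FPKM, distance 0.053), Bnip3 (27.1 against 62.3 FPKM, distance 0.17), Tuba4a (31.3 against 63.0 FPKM, distance 0.26), Fam25c (30.4 against 57.5 FPKM, distance 0.328) and Scd2 (34.4 against 66.8 FPKM, distance 0.353). Rian, whose row carries a further symbol, had a distance of 0.347 and was the fifth nearest of 23702 other rows with any symbol, ahead of Scd2. Likeness over 2 values carries little information, since any gene with those levels scores the same.

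**Figure D3:**
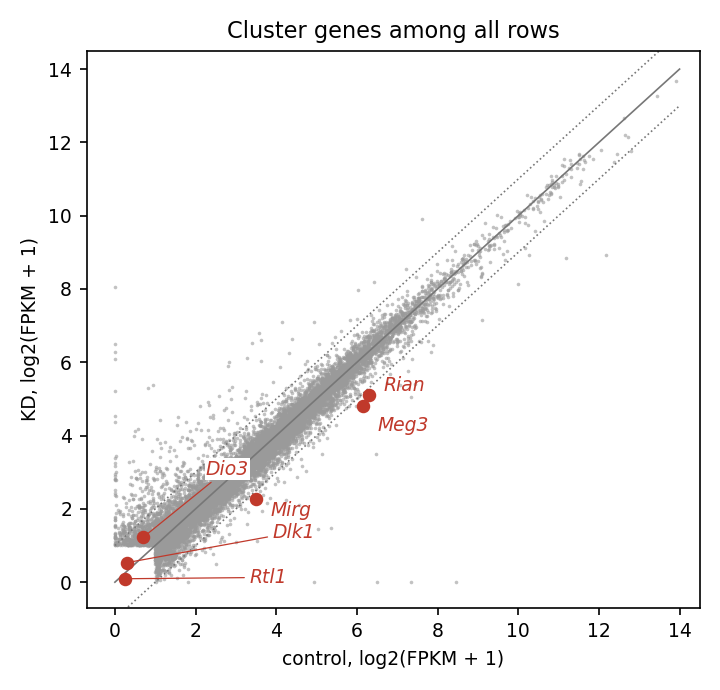
Log2(FPKM + 1) in the KD against the control for the 13462 rows at 1 FPKM or more in either condition (grey) and the 6 cluster genes (red); the solid line marks equal levels and the dotted lines a 2-fold difference. Meg3, Rian and Mirg lie under the lower dotted line, where 0.973% of the rows fall.

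Regulators of the cluster's imprint were next. ZFP57 and TRIM28 hold methylation on imprinted control regions, DNMT3A and DNMT3L place it, DNMT1 with UHRF1 copies it, and DPPA3 protects it in the early embryo. All 20 listed genes were found and tested, and none was marked in either direction. Over all tested rows 1.15% were marked, so a list of this size holding none is near that share. The median log2 fold of the list was -0.062 over 19 rows at 1 FPKM. The largest differences were in Dnmt3b (25.6 against 16.5 FPKM), Dnmt3l (168 against 250 FPKM), Aff3 (1.29 against 0.585 FPKM) and Uhrf1 (91.1 against 126 FPKM). The most abundant were Zfp42 (572 against 511 FPKM) and Trim28 (405 against 454 FPKM). Zfp57 was at 161 against 170 FPKM and Dppa3 at 0.636 against 0.701 FPKM. PRC2, the H3K27 methyltransferase that binds Meg3 RNA in ES cells, had none of 10 subunits marked and a median of 0.013. Aebp2 was at 104 against 65.4 FPKM, Phf19 at 3.37 against 5.57 FPKM, the catalytic subunit Ezh2 at 84.1 against 58.6 FPKM and Eed at 124 against 101 FPKM. Rbbp7 was at 147 against 130.3 FPKM and Mtf2 at 123 against 136 FPKM.

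Genes related to the protein products of the cluster were given by function. For Dlk1, 18 Notch receptors, ligands and targets were listed, of which 13 were tested and none was marked (1.15% over all tested rows). Their median log2 fold was 0.23 over 12 rows at 1 FPKM, 8 of them above 0. It was 0.059 with no minimum and -0.096 with a minimum of 5 FPKM. Nrarp and Hey1, both higher in the KD, reached 1 FPKM in the KD alone. The ligand genes Jag1 (2.76 against 1.44 FPKM) and Jag2 (4.54 against 3.17 FPKM) and the receptor gene Notch3 (8.12 against 5.17 FPKM) were higher without passing the test, and the target Hes1 was at 38.5 against 53.8 FPKM. Rbpj, the transcription factor of the pathway, was at 124 against 132 FPKM, and Dlk2, the closest relative of Dlk1, at 0.143 against 0.171 FPKM.

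For Dio3, none of 8 tested genes of thyroid hormone handling was marked (1.15% over all tested rows) and the median was 0.0094. The activating deiodinase Dio1 was listed at 0 in both conditions, Dio2 was under 0.01 FPKM in both, and the receptor gene Thra was at 4.65 against 6.45 FPKM. Klf9, a target of the hormone, was at 66.3 against 57.5 FPKM. For Rtl1, 10 genes derived from the same retrotransposon family were listed and 4 were tested. Of these Peg10, another imprinted gene, was marked higher, at 48.5 against 23.2 FPKM with a deposited q of 0.00815, and none was marked lower. The 3 that did not pass were Cxx1a (1.25 against 0.482 FPKM), Cxx1b (1.20 against 0.371 FPKM) and Ldoc1l (2.09 against 2.87 FPKM). Over all tested rows 0.963% were marked higher. For the microRNAs, none of 8 genes of small RNA processing was marked, with a median of -0.18. Dicer1, which cuts the hairpin, was at 17.7 against 21.8 FPKM and Drosha, which frees it from the host, at 41.5 against 37.9 FPKM. Ago2, which carries the mature microRNA, was at 32.8 against 39.4 FPKM, and the exporter gene Xpo5 at 44.3 against 42.9 FPKM.

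Imprinted genes outside the cluster were read against all tested rows, of which 0.963% were marked higher and 0.187% lower, so that marks in the table as a whole lean to the higher side. Among maternally expressed genes 11 rows were tested, H19, a noncoding RNA of the Igf2 cluster, was marked higher and none was marked lower. Of the 11 rows at 1 FPKM, 8 had a log2 fold above 0 and 3 below. H19 was at 8.94 FPKM in the KD against 1.57 FPKM in the control, with a deposited q of 0.0276. The median log2 fold of the list was 0.18, and Cdkn1c, a cell cycle inhibitor gene, was at 14.6 against 10.4 FPKM. Among paternally expressed genes 17 rows were tested. Igf2, a growth factor gene, and Peg10 were marked higher and none was marked lower. The median was 0.38 over 15 rows at 1 FPKM, 9 of them above 0 and 6 below. Igf2 was at 5.08 against 0.874 FPKM with a deposited q of 0.0242. Mest, at 28.0 against 11.2 FPKM, did not pass the test, nor did Sgce, the neighbour of Peg10, at 5.62 against 3.23 FPKM. No list of either kind had a member lower by 2-fold.

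Many markers of 2 other cell types were marked higher in the KD. Of 15 tested feeder fibroblast markers 6 were marked higher and 0 lower, where the shares over all tested rows were 0.963% and 0.187%. Their median log2 fold was 1.59 over 12 rows, and without an FPKM minimum it was 0.59. The 21 markers summed to 181 FPKM in the KD against 38.9 FPKM in the control. Those marked were S100a4 (68.6 against 8.70 FPKM), Ccl2 (36.5 against 8.60 FPKM), Tnc, Bgn, Fbln2 and Pdgfra. Single markers ranged from 0 to 68.6 FPKM in the KD and from 0 to 8.70 FPKM in the control. Of the 12 rows, 11 had a log2 fold above 0 and 1, Pdgfrb (2.57 against 2.73 FPKM), below. Col1a1 and Pdgfra (6.21 against 0.929 FPKM) reached 1 FPKM in the KD alone, so the minimum favours rows that are higher there. Of the markers under 1 FPKM in both conditions, Col6a2 alone was lower, at 0.710 against 0.973 FPKM. Collagen genes of the list included Col1a1 (3.63 against 0.920 FPKM), Col1a2 (4.03 against 1.12 FPKM) and Col3a1 (0.244 against 0.0628 FPKM). Thy1 was at 7.06 against 5.08 FPKM, Postn was under 0.05 FPKM in both and Lum was listed at 0 in both. Of 14 tested primitive endoderm markers 12 were marked higher and 0 lower, with a median of 2.27, and they summed to 722 FPKM against 127 FPKM. Single markers ranged from 2.63 to 249 FPKM in the KD and from 0.140 to 64.2 FPKM in the control. The matrix gene Col4a1 was at 109 against 10.9 FPKM, and the defining factors Gata6, Gata4 and Sox17 at 9.67 against 1.18 FPKM, 16.7 against 3.37 FPKM and 4.89 against 0.551 FPKM. Foxa2 and Amn did not pass. The 12 ES cell markers gave 13 rows, of which none was marked, with a median of 0.043. Of these rows 7 had a log2 fold above 0 and 6 below. The lowest folds were in Tfcp2l1 (99.1 against 143 FPKM) and Klf2 (80.4 against 111 FPKM), and the highest in Klf4 (132 against 115 FPKM). Pou5f1, which encodes OCT4, was at 1078 against 1036 FPKM. Sox2 was at 216 against 257 FPKM, and all 13 rows were above 3 FPKM in both conditions. The part of these cell types in the lower Meg3, Rian and Mirg was not tested. Pdgfra stands in both the fibroblast and the endoderm list, Peg10 in that of Rtl1 relatives and that of paternally expressed genes, Zfp42 in that of imprint regulators and that of ES cells, and Amn in the endoderm list and among the flanking genes.

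**Figure D4:**
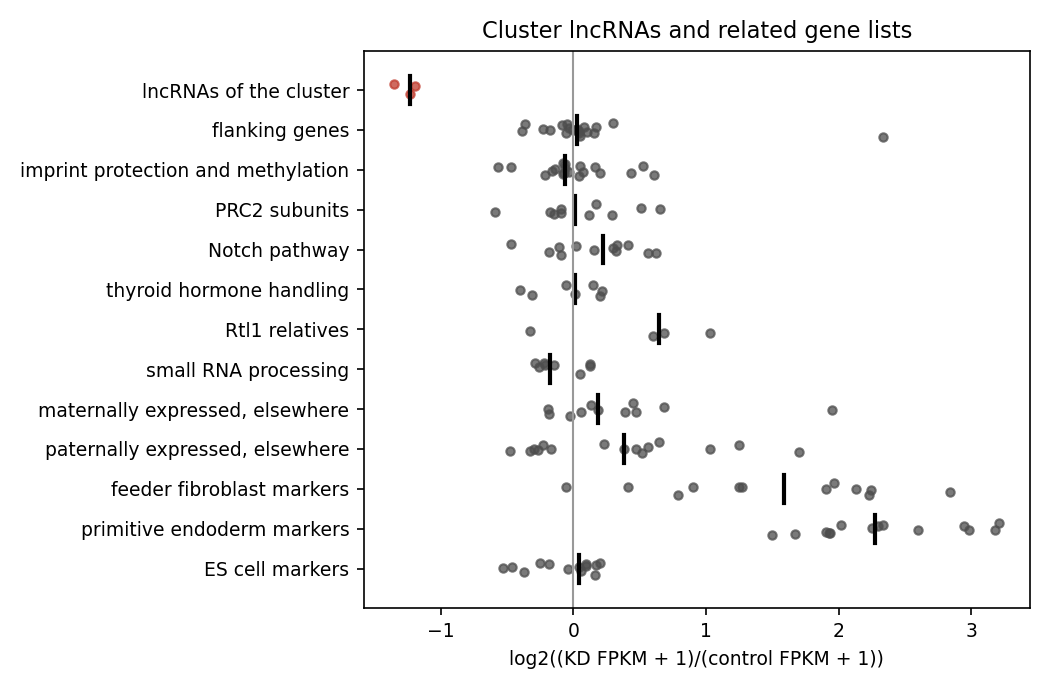
Log2 fold of each row at 1 FPKM or more in either condition for the noncoding RNAs of the cluster (red) and the 12 related gene lists (grey), with a black bar at each median and points spread vertically for legibility. The 3 noncoding RNAs lie between -1.35 and -1.20, the ES cell markers have a median of 0.043, and the fibroblast and endoderm markers have medians of 1.59 and 2.27.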

How the data were processed

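RNA was extracted with TRIzol and sequenced on Illumina libraries, per the labels' protocols. TopHat, Cufflinks and Cuffdiff were run on mm9, per the submitters' processing notes. The sources used here do not state their versions, the annotation, the use of strand or the library scaling. The authors deposited 1 FPKM per gene for the treated condition, taken as the 3 KD clones merged, and 1 for the control, per the file headers. The p-value and q-value are those of Cuffdiff in the authors' deposited table, where the largest q among marked rows was 0.0478. Rows of status OK (tested) or NOTEST were used, and the 10 rows of failed or overloaded loci were left out. No column of per-sample values was used beyond these.

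Fold changes were computed with Python 3.11.15 and pandas 2.3.3 as log2((KD FPKM + 1)/(control FPKM + 1)), which understates low genes. No test was run, since each condition has 1 value. List medians used rows at 1 FPKM or more in either condition. Locus starts in the table count from 0 and were raised by 1. RefSeq sequences and GENCODE M21 models are on GRCm38, never combined with mm9 positions. Counting and medians were tested on simulated data.

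The members and lists were chosen with earlier results of these data known. Named genes were the members, other cluster rows above 0, the nearest 3 rows at 1 FPKM on each side, list members marked or with the largest folds or levels, and the 5 rows with 1 symbol nearest to Meg3, which leaves out Rian. Not all of these are printed. Zfp57, Dppa3, Dlk2, Dio1, Dio2, Col1a1, Col3a1, Postn, Lum, Foxa2, Dleu2 and the Mir290 host were added after their values were seen. So were Col1a2, Thy1, Pdgfrb, Col6a2, Nrarp, Hey1, Eml1 and the flanking row at 0.876 FPKM in the KD. Alternatives were the pseudocount, the FPKM minimum, centring, the fold, rows with 1 symbol and tested rows.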

Additional observations from a re-analysis of the deposited data

How the results depend on the processing

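Meg3, Rian and Mirg kept their direction and a log2 fold past 2-fold under every pseudocount and centring tried. The ranges were -1.38 to -1.32, -1.22 to -1.17 and -1.43 to -1.20. The centres were 0.021 and -0.026, and pseudocounts of up to 1 FPKM move such levels little. These settings could therefore hardly have changed the outcome, which supports nothing further. The low genes depended on the pseudocount. Dlk1 moved from 0.23 to 0.96 with none, and Rtl1 from -0.15 to -0.75 with 0.1 FPKM and to -1.44 with none, as the construction of a pseudocount implies. Dio3 ranged from 0.50 to 1.09, past 2-fold only with no pseudocount. Of 3 members lower by 2-fold, 0 were left when rows with several symbols were dropped, because Meg3, Rian and Mirg all carry small RNA symbols. Among cluster rows above 0, the 4 that were higher became 1 with tested rows only. Of 36 list medians under alternatives 34 moved by less than 1.5-fold. The exceptions were the fibroblast markers, 0.59 without an FPKM minimum, and the primitive endoderm markers, 2.94 with a pseudocount of 0.1 FPKM. The Notch list alone changed sign, from 0.23 to -0.096 with a minimum of 5 FPKM. No paired analysis was possible because the KD clones are merged and the control is 1 library, and for the same reason no clone could be left out in turn. Depth is unknown, so no counting limit can be given for the members under 1 FPKM.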
